A study of Mus musculus with 12 samples.

Results

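Vegfa, Kdr, Flt1, Pecam1, Stab2, Lyve1, Clec4g, Cd34, Plvap and Angpt2, 10 genes of sinusoidal and other vascular endothelium and the signals that act on it, were followed across liver and liver tumours of mice. They were chosen by name: every probe outside the control spots that carries a member's gene name was taken, which gave 18 of 55681 probes and 10 of the 18101 genes tested. Expression was measured on 12 1-colour Agilent arrays, 3 per group, hybridised with total RNA from livers of F2 C3H/HeN males about 74 weeks old. The groups were arsenite-line tumours, arsenite-line non-tumour liver, arsenite-line normal liver and control-line non-tumour liver. Sodium arsenite at 85 ppm was in the tap water of the pregnant F0 dams of the arsenite line between gestation days 8 and 18, and dams of the control line drank plain tap water. F1 mice of both lines were mated at 10 weeks, neither F1 nor F2 mice received arsenite, and all F0 dams ate a standard diet. Samples are numbered 1 to 3 within each group, and no label says that they are separate mice, so p-values measure the spread between these samples. How normal and non-tumour liver were told apart is not given in the sources used here, and normal liver and tumours of the control line were not analysed here.

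Liver sinusoids are lined by a fenestrated endothelium without a continuous basement membrane, which takes up waste molecules through scavenger and lectin receptors such as Stab2, Lyve1 and Clec4g. Endothelium of continuous capillaries carries Cd34 instead and rests on a basement membrane, and liver tumours are known for vessels of that kind (capillarisation). Vegfa signals through Kdr and is captured by the decoy-like receptor Flt1, while Angpt2 opposes Angpt1 at the receptor Tek during vessel remodelling.

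All 12 hepatocyte markers of a fixed list, Alb and Ttr among them, were well above background on all 12 arrays. Log2 values of arrays correlated across genes at 0.982 to 0.987 between tumours, 0.905 to 0.934 between a tumour and another array, and 0.986 to 0.993 among the other arrays. Genes are not independent of each other, so these correlations describe the arrays only. The 75th percentile of signal lay between 153 and 245 units, and 40.5% to 46.9% of spots were well above background. The tumour arrays filled slide 3 alone and the normal arrays slide 2 alone, while both non-tumour groups shared slide 1, so slide and group cannot be told apart in any comparison with tumours or normal liver. No member spot was saturated.

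Probe letters were taken from the array annotation and promoters from RefSeq (GRCm38.p6), which held 7 windows for 6 of the 10 members. The 3 probes below are shown because Cd34 and Plvap had a second probe and Pecam1 a single one, in lower case, 5′ to 3′, with mm9 positions.
Pecam1 A_55_P2087087, chr11:106540864-106540923, minus strand: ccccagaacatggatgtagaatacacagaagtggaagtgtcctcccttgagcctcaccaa
Cd34 A_55_P2009225, chr1:196785280-196785339, plus strand: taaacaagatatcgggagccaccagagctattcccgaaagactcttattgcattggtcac
Plvap A_55_P2049186, chr8:74030739-74030798, minus strand: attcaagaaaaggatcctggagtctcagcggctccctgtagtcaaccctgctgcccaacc
All 3 can be read through without a stop codon in at least 1 frame. Exons and UTRs were not assigned to probes, since no mm9 annotation was used here.

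The bases before the genes of Cd34, Clec4g and Stab2 are shown next because Cd34 was the member that rose most in tumours and Clec4g and Stab2 were the members that fell against arsenite-line non-tumour liver. Capitals mark AGGAAG, the core of sites of ETS factors, on either strand (CTTCCT on the other). The stretches end at the annotated gene start.
Cd34, chr1:194938571-194938820, plus strand: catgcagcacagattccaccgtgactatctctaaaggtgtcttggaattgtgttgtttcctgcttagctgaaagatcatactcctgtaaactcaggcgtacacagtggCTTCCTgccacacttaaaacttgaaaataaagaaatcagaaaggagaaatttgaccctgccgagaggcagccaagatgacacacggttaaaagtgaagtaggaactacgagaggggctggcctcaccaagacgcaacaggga
Clec4g, chr8:3720696-3720901, minus strand: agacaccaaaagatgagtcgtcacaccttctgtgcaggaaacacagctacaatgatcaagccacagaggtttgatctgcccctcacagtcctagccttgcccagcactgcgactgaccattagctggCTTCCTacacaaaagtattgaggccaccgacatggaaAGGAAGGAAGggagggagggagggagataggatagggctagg
Stab2, chr10:87008039-87008192, minus strand: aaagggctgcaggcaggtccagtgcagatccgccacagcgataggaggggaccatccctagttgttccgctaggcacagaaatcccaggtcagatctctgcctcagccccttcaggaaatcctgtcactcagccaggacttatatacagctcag
AGGAAG was found 1 time in the Cd34 stretch and 3 times in that of Clec4g, where 2 of the matches overlap each other. In the whole window of 250 bases, Stab2 had 1 match, which lies beyond the printed bases. Flt1 had 2 matches and Kdr none, and 29.5% of 32851 RefSeq promoter windows of that length hold the motif. The GATA motif AGATAA was found in 1 member window, a Vegfa window, against 9.99% of all windows. The low-oxygen core ACGTG was likewise found in 1, the other Vegfa window, against 16.6%. That Vegfa window (46025164 to 46025413) lies inside the annotated gene, with 0 bases before the gene start. The Kdr and Flt1 windows also hold 0 bases before the start of their genes. Each motif was searched on both strands, and a match describes the letters only.

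Tumours were compared with arsenite-line non-tumour liver, with normal liver of the arsenite line and with control-line non-tumour liver. The 3 comparisons ask how the members differ between tumour and liver, and they share the tumour arrays. Against arsenite-line non-tumour liver, 6 of 10 members passed an adjusted p under 0.05, Cd34, Angpt2, Lyve1 and Flt1 higher and Stab2 and Clec4g lower, where 47.1% of all genes passed (17.1% higher and 30% lower). Against normal liver 6 passed, Cd34, Angpt2, Flt1 and Pecam1 higher and Stab2 and Kdr lower, where 48.1% of all genes passed (17.2% higher and 31% lower). Against control-line non-tumour liver 7 passed, Cd34, Angpt2, Lyve1 and Flt1 higher and Stab2, Clec4g and Kdr lower, where 49.2% of all genes passed (16.9% higher and 32.3% lower). The share of members that passed in either direction was thus above that of all genes, though with 10 members. By direction 4 members were higher in each comparison, beside 17.1%, 17.2% and 16.9% of all genes. Lower were 2, 2 and 3 members, beside 30%, 31% and 32.3%. The members were chosen with results known, so these shares were not tested. Groups did not overlap for 7, 8 and 7 members, where 56.5%, 58.8% and 56.6% of all genes did not overlap. Cd34, Angpt2, Flt1 and Stab2 passed in all 3 comparisons, and Vegfa and Plvap in none. The median difference of the members was 0.26, 0.30 and 0.23 on the log2 scale, and that of all genes -0.13, -0.15 and -0.15. Of all called genes 36.4%, 35.7% and 34.3% were higher in tumours, against 53.5%, 50.6% and 50.7% with the 75th percentile of detected probes as the scale, 47.7%, 48.3% and 46.6% with quantile normalization, and 33.1%, 62.0% and 56.8% with the median of each array. These scalings moved the median of all genes to between -0.20 and 0.09, so small member differences are relative to that shift. RNA was taken from whole tissue, so fewer endothelial cells and less RNA per cell cannot be told apart.

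**Figure D1:**
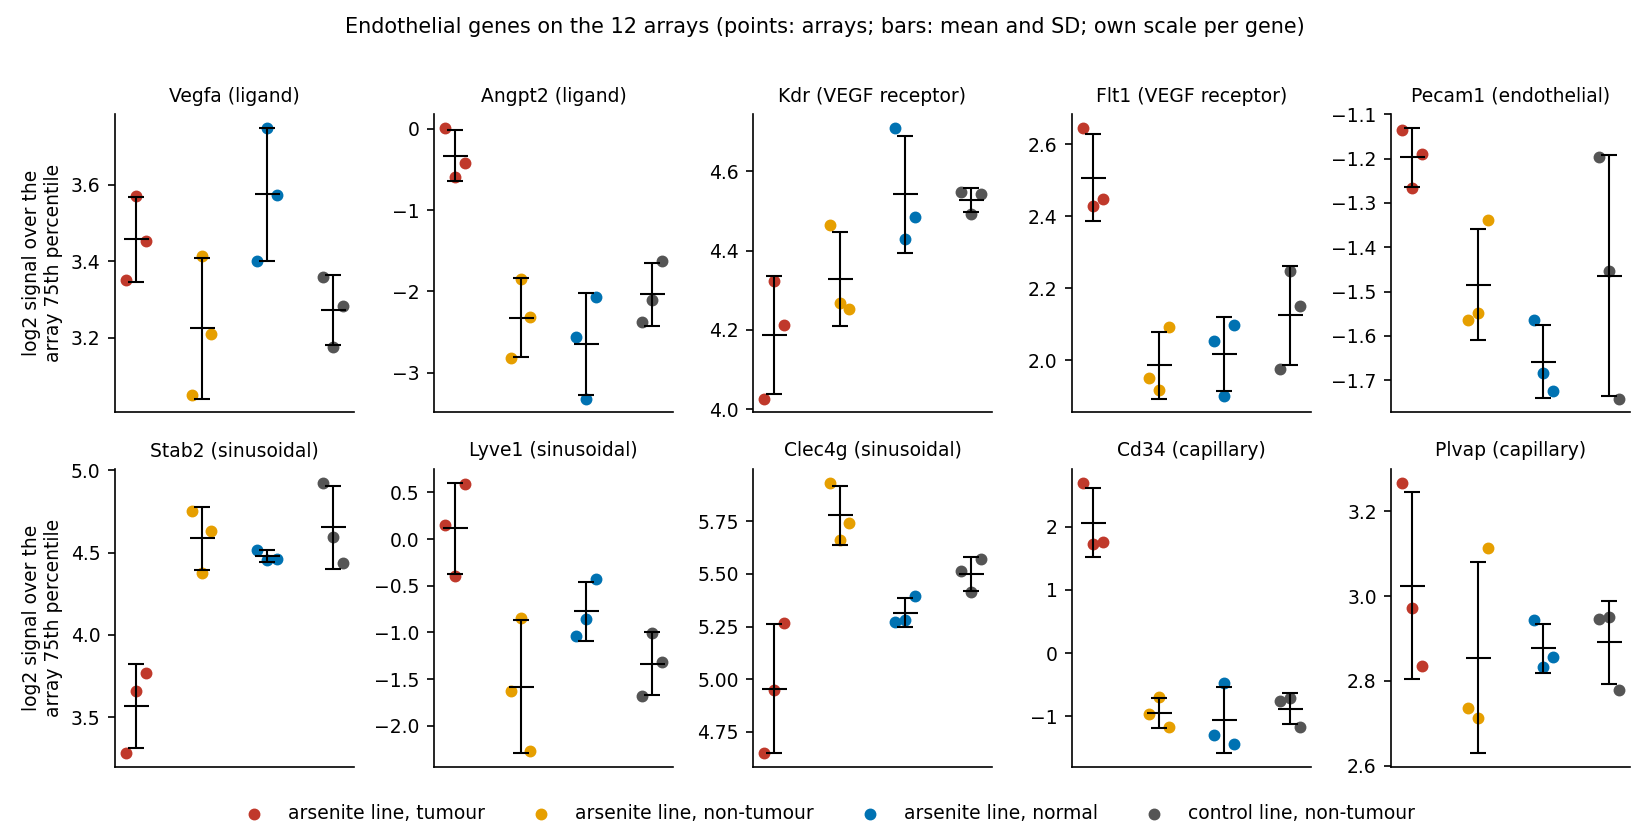
Log2 signal of each member relative to the 75th percentile of its array, with 1 point per array, tumours at the left and a separate scale for each gene. Bars give the mean and SD of 3 arrays. Cd34 and Angpt2 lie higher on all 3 tumour arrays than on any other array, Stab2 lies lower, and Plvap overlaps between all groups.

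Among the ligands, Vegfa, the main growth factor for endothelium, was read by a probe on chromosome 17 (mm9, 46154387 to 46154446). Its log2 value, relative to the 75th percentile of the array as all values here, was 3.35, 3.57 and 3.45 in tumours, against 3.05, 3.41 and 3.21 in arsenite-line non-tumour liver. It was 3.40, 3.75 and 3.57 in normal liver and 3.36, 3.18 and 3.28 in control-line non-tumour liver. Tumours overlapped with each of the other groups, and normal liver had the highest single array. The difference was 0.23 ± 0.12 against arsenite-line non-tumour liver (SE, n = 3 per group, adjusted p = 0.14), with a 95% interval of -0.04 to 0.51. It was -0.12 against normal liver (adjusted p = 0.46, interval -0.39 to 0.16) and 0.19 against the control line (adjusted p = 0.24, interval -0.09 to 0.46). With quantile normalization it passed against both non-tumour groups, at 0.38 (adjusted p = 0.021) and 0.35 (adjusted p = 0.032). It also passed against both with the 75th percentile of detected probes, at 0.39 (adjusted p = 0.021) and 0.35 (adjusted p = 0.036). With normexp it passed against the control line, at 0.36 (adjusted p = 0.022). Over 19 alternatives the adjusted p ran from 0.021 to 0.41 and from 0.022 to 0.79. The second Vegfa probe gave 1.97, 2.42 and 2.32 in tumours and 2.08, 2.05 and 2.08 in arsenite-line non-tumour liver, with a difference of 0.17 (adjusted p = 0.37).

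Angpt2, the angiopoietin made by activated endothelium, was read by a probe on chromosome 8 (mm9, 18691458 to 18691517). It reached 0.01, -0.59 and -0.42 in tumours, against -2.82, -1.84 and -2.31 in arsenite-line non-tumour liver. Normal liver gave -2.56, -3.32 and -2.07, and control-line non-tumour liver -2.38, -2.11 and -1.62. All 3 tumours lay above all 9 other arrays, by at least 1 log2 unit. Angpt2 rose by 1.99 ± 0.34 (adjusted p = 0.00083), 2.32 ± 0.34 (adjusted p = 0.00032) and 1.70 ± 0.34 (adjusted p = 0.0021) in the comparisons in the order above. The probe was well above background on all 3 tumours but on 2 of 3 non-tumour arrays of the arsenite line and 1 of 3 normal arrays, so low values there are imprecise. With normexp background correction the differences were 1.05 (adjusted p = 0.00014), 1.13 (adjusted p = 8.1e-05) and 0.94 (adjusted p = 0.0003).

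Among the receptors, Kdr, the signalling VEGF receptor, was read by probes on chromosome 5 that did not give the same picture. The brighter probe (mm9, 76330395 to 76330454) reached 4.03, 4.32 and 4.21 in tumours, against 4.46, 4.27 and 4.25 in arsenite-line non-tumour liver. It was 4.71, 4.43 and 4.49 in normal liver and 4.55, 4.49 and 4.54 in control-line non-tumour liver. Tumours lay below normal liver and below the control line on all arrays and overlapped with arsenite-line non-tumour liver. Kdr fell by 0.35 against normal liver (adjusted p = 0.022) and by 0.34 against the control line (adjusted p = 0.025), and gave -0.14 ± 0.11 against arsenite-line non-tumour liver (adjusted p = 0.32, interval -0.38 to 0.10). Both calls were lost with the median, quantile or detected-probe scaling (adjusted p = 0.13 to 0.67), and without tumour 1 (adjusted p = 0.075 and 0.086). The first was also lost without normal replicate 1 (adjusted p = 0.084), and the second without control replicate 1 (adjusted p = 0.057) or 3 (adjusted p = 0.061). The second probe, printed as 10 spots per array (mm9, 76329309 to 76329368), gave 3.02, 3.21 and 3.33 in tumours, against 3.27, 3.02 and 3.13 in normal liver, a difference of 0.05 (adjusted p = 0.73).

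Flt1, the VEGF receptor with tight binding and weak signalling, was read by a probe on chromosome 5 (mm9, 148373791 to 148373850). It reached 2.65, 2.43 and 2.45 in tumours, against 1.95, 1.92 and 2.09 in arsenite-line non-tumour liver. Normal liver gave 2.05, 1.90 and 2.10, and control-line non-tumour liver 1.98, 2.25 and 2.15. All tumours lay above all other arrays. Flt1 rose by 0.52 ± 0.11 (adjusted p = 0.0023), 0.49 ± 0.11 (adjusted p = 0.0033) and 0.38 ± 0.11 (adjusted p = 0.012), which is 1.43-fold, 1.40-fold and 1.30-fold. The first call was lost with the median of each array as the scale (0.44, adjusted p = 0.077). A second Flt1 probe (mm9, 148446872 to 148446931) also passed in all 3 comparisons, with differences of 0.40, 0.64 and 0.38. The remaining Flt1 probe was not well above background on any array.

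**Figure D2:**
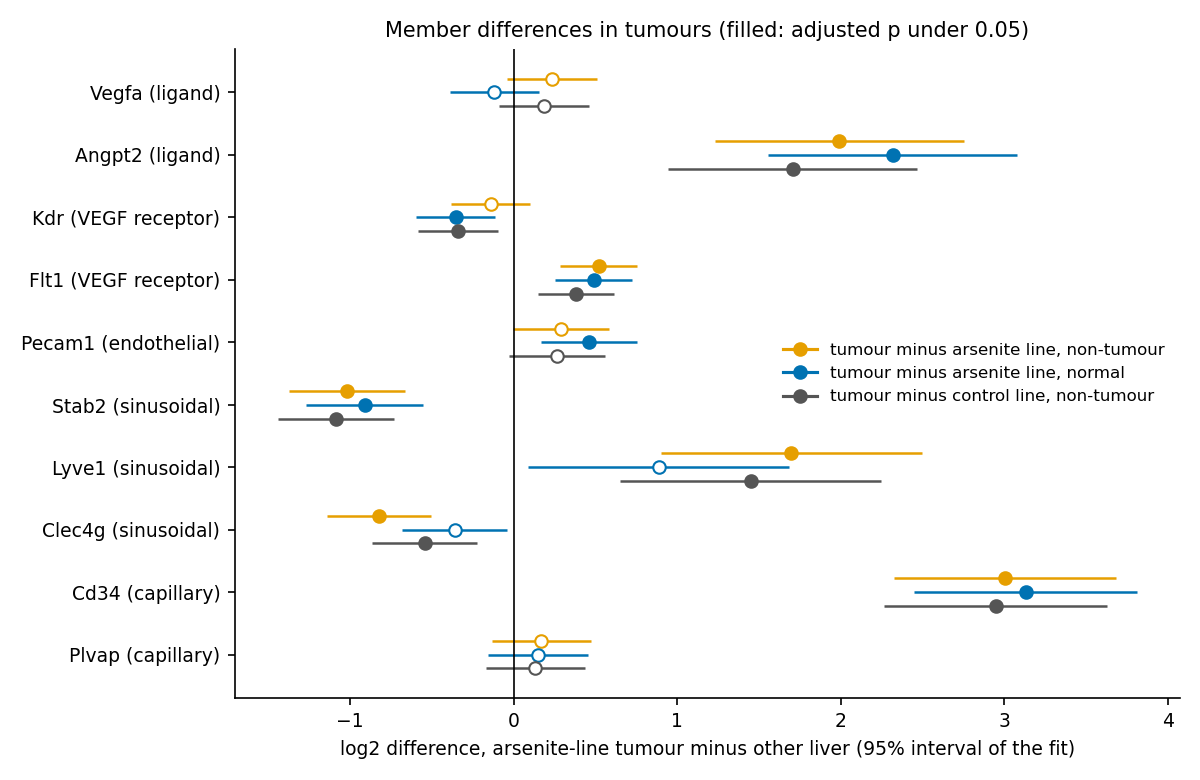
Log2 differences of the 10 members, tumour minus each of the 3 other groups (colours), with 95% intervals of the fit. Filled points passed an adjusted p under 0.05. Cd34 and Angpt2 lie farthest to the right, and Stab2, Clec4g and Kdr are the members whose 3 differences are all below 0.

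Pecam1, an adhesion molecule of all endothelium, was read by the chromosome 11 probe shown above. It reached -1.13, -1.27 and -1.19 in tumours, against -1.57, -1.55 and -1.34 in arsenite-line non-tumour liver. Normal liver gave -1.56, -1.68 and -1.72, and control-line non-tumour liver -1.20, -1.45 and -1.74. Tumours lay above both other groups of the arsenite line and overlapped with the control line. Pecam1 rose by 0.46 ± 0.13 against normal liver (adjusted p = 0.015), a call that was lost with normexp (0.14, adjusted p = 0.20) and without normal replicate 3 (0.43, adjusted p = 0.051). It gave 0.29 (adjusted p = 0.098, interval -0.01 to 0.58) against arsenite-line non-tumour liver. Over 18 alternatives it ran there from 0.08 to 0.45 (adjusted p = 0.032 to 0.45), and it passed with the 75th percentile of detected probes. Against the control line it gave 0.27 (adjusted p = 0.12, interval -0.03 to 0.56). There it passed with detected probes (0.43, adjusted p = 0.038), with the median of each array (0.47, adjusted p = 0.043) and without control replicate 1 (0.40, adjusted p = 0.020). It was 0.13 without control replicate 3 (adjusted p = 0.40) and 0.046 with normexp (adjusted p = 0.68).

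Among the sinusoidal members, Stab2, a scavenger receptor for hyaluronan, fell in tumours by its brightest probe (mm9 chromosome 10, 86303982 to 86304041). It reached 3.28, 3.66 and 3.77 in tumours, against 4.75, 4.38 and 4.63 in arsenite-line non-tumour liver. Normal liver gave 4.52, 4.46 and 4.46, and control-line non-tumour liver 4.93, 4.60 and 4.43. All tumours lay below all other arrays. Stab2 fell by 1.02 ± 0.16 (adjusted p = 0.00047), 0.91 ± 0.16 (adjusted p = 0.00098) and 1.08 ± 0.16 (adjusted p = 0.00031) on the log2 scale.

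The other Stab2 probes did not show the fall. The probe at 86381487 to 86381546 gave -0.40, 0.51 and 0.07 in tumours, against 0.15, 0.11 and 0.10 in arsenite-line non-tumour liver. The probe at 86455257 to 86455316 gave -0.97, -0.54 and -0.91 in tumours, against -0.81, -1.25 and -0.92. Their differences were -0.06 (adjusted p = 0.81) and 0.19 (adjusted p = 0.30), and with the mean of the 3 probes the Stab2 difference was -0.30 (adjusted p = 0.10). The array annotation ties the bright probe to a RefSeq transcript and the others to Ensembl transcripts. The part of transcript choice and probe brightness in the disagreement was not tested.

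Clec4g, a C-type lectin of sinusoidal endothelium, was read by a probe on chromosome 8 (mm9, 3716182 to 3716241). It reached 4.65, 4.95 and 5.27 in tumours, against 5.93, 5.66 and 5.74 in arsenite-line non-tumour liver. Normal liver gave 5.27, 5.28 and 5.40, and control-line non-tumour liver 5.51, 5.41 and 5.57. Tumours were lowest throughout, though tumour 3 and normal replicate 1 both read 5.27. Clec4g fell by 0.82 ± 0.14 against arsenite-line non-tumour liver (adjusted p = 0.0009) and by 0.54 ± 0.14 against the control line (adjusted p = 0.0098). The second call was lost with the median of each array (-0.34, adjusted p = 0.16) and with quantile normalization (-0.27, adjusted p = 0.16). Against normal liver it gave -0.36 (adjusted p = 0.060, interval -0.68 to -0.04), and over 18 alternatives -0.52 to -0.12 (adjusted p = 0.0078 to 0.63). Without tumour 3 it passed, at -0.52, and without tumour 1 it was -0.21 (adjusted p = 0.20).

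Lyve1, a hyaluronan receptor of sinusoidal and lymphatic endothelium, went the other way from Stab2 and Clec4g. Its probe on chromosome 7 (mm9, 117994171 to 117994230) reached 0.15, -0.39 and 0.59 in tumours, against -1.63, -0.85 and -2.27 in arsenite-line non-tumour liver. Normal liver gave -1.04, -0.86 and -0.42, and control-line non-tumour liver -1.679, -1.003 and -1.319. Tumours lay above all other arrays, with tumour 2 next to normal replicate 3. Lyve1 rose by 1.70 ± 0.36 against arsenite-line non-tumour liver (adjusted p = 0.0029), but with the replicate block on the 6 arrays the adjusted p was 0.062. It rose by 1.45 ± 0.36 against the control line (adjusted p = 0.0070). Against normal liver it gave 0.89 ± 0.36 (adjusted p = 0.064). That difference passed with the median as the scale (1.13, adjusted p = 0.027), with detected probes (1.03, adjusted p = 0.034) and with normexp (0.61, adjusted p = 0.023). It passed on the 6 arrays alone (adjusted p = 0.047) and with the replicate block on them (adjusted p = 0.026). Without tumour 2 it passed (1.14, adjusted p = 0.036), but not without tumour 3 (0.65, adjusted p = 0.20). Of 4 markers of lymphatic endothelium, Prox1 alone passed the filter, with a difference of -0.05 (adjusted p = 0.91) against arsenite-line non-tumour liver, while Pdpn and Mmrn1 did not pass the filter and Ccl21a had no probe.

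Among the capillary members, Cd34, a sialomucin of capillary endothelium, rose more than any other member in each tumour comparison. Its probe on chromosome 1 (mm9, 196787392 to 196787451) reached 2.70, 1.73 and 1.76 in tumours, against -0.97, -0.69 and -1.16 in arsenite-line non-tumour liver. Normal liver gave -1.29, -0.47 and -1.44, and control-line non-tumour liver -0.77, -0.72 and -1.16. The lowest tumour lay over 2 log2 units above the highest of the 9 other arrays. Cd34 rose by 3.00 ± 0.31 (8.03-fold, adjusted p = 2.7e-05), 3.13 ± 0.31 (8.75-fold, adjusted p = 2.2e-05) and 2.95 ± 0.31 (7.71-fold, adjusted p = 3e-05). The call held in all 18 alternatives of each comparison, with differences of 2.24 to 3.43. The dim Cd34 probe shown above was well above background on 1 tumour array and on no other array, so it was not tested.

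Plvap, which forms the diaphragms of fenestrae and caveolae, did not follow Cd34. Its probe on chromosome 8 (mm9, 74021877 to 74021936) reached 3.27, 2.97 and 2.84 in tumours, against 2.74, 2.71 and 3.11 in arsenite-line non-tumour liver. Normal liver gave 2.94, 2.83 and 2.86, and control-line non-tumour liver 2.95, 2.95 and 2.78. Tumour 1 was the highest array, and tumour 3 lay within each other group. The differences were 0.17 (adjusted p = 0.34, interval -0.13 to 0.48), 0.15 (adjusted p = 0.40, interval -0.16 to 0.45) and 0.13 (adjusted p = 0.45, interval -0.17 to 0.44). The second Plvap probe gave 0.23, 0.32 and 0.13, and none of these passed.

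**Figure D3:**
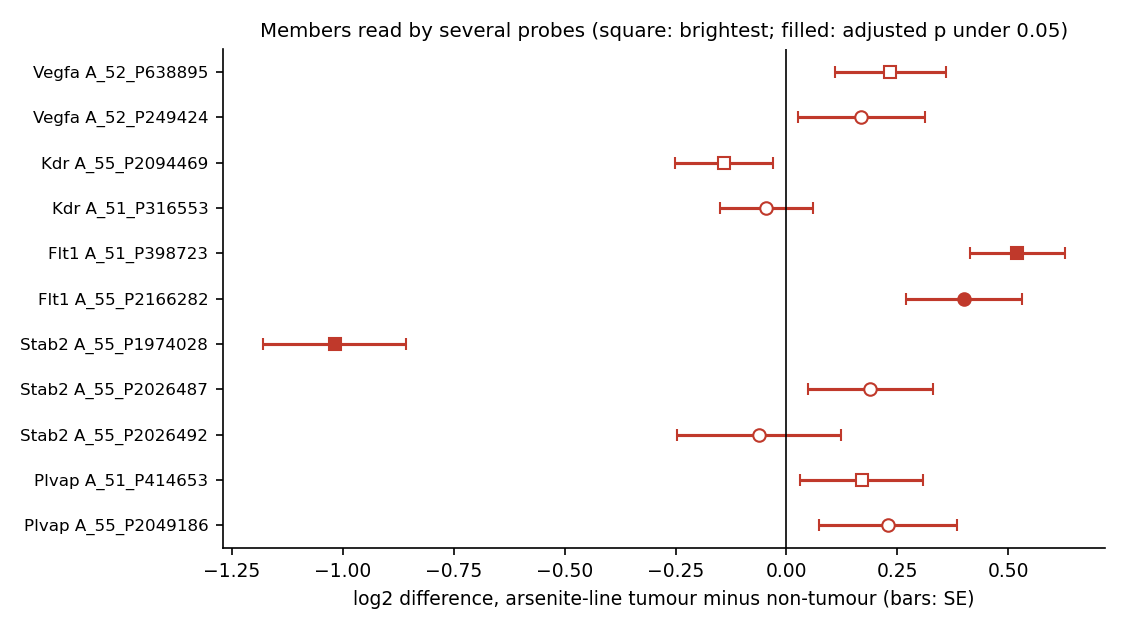
Log2 differences, arsenite-line tumour minus arsenite-line non-tumour liver, for each probe past the filter of the 5 members with several such probes, with SE. Squares mark the brightest probe and filled marks passed an adjusted p under 0.05. The Flt1 probes lie together at 0.52 and 0.40, whereas the bright Stab2 probe at -1.02 stands apart from the others at 0.19 and -0.06.

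Sinusoidal and capillary members were set against each other on each array. The mean over Stab2, Lyve1 and Clec4g of the log2 value, centred on the 9 arrays outside tumours, was taken minus the same mean over Cd34 and Plvap. This contrast was -2.29, -1.61 and -1.09 in tumours, against 0.13, 0.05 and -0.28 in arsenite-line non-tumour liver. It was 0.09, -0.22 and 0.43 in normal liver and -0.17, -0.12 and 0.09 in control-line non-tumour liver. All tumours lay below all other arrays, and the group means were -1.67 ± 0.60, -0.03 ± 0.22, 0.10 ± 0.33 and -0.07 ± 0.14 (SD, n = 3 each). No test is given, since the members were chosen with results known. The capillary mean was 1.59 ± 0.38 in tumours, whereas the sinusoidal mean was -0.08 ± 0.29 because the Lyve1 rise offset the falls of Stab2 and Clec4g. The contrast rested on Cd34: without it the tumour difference from arsenite-line non-tumour liver was -0.22 in place of -1.64, and without Lyve1 it was -2.51.

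**Figure D4:**
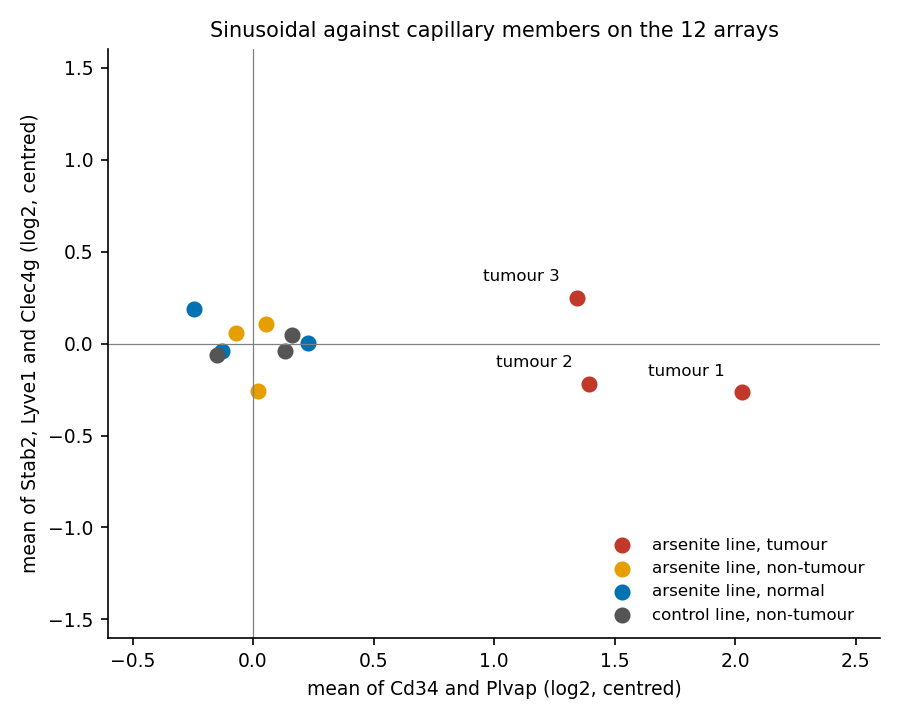
Each point is 1 array, with the mean of Cd34 and Plvap on the horizontal axis and the mean of Stab2, Lyve1 and Clec4g on the vertical axis, both log2 and centred on the 9 arrays outside tumours. Tumours lie to the right, at a group mean of 1.59, and spread around 0 on the vertical axis.

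Tumours differed among themselves in the same members. Tumour 1 had the highest Cd34, Plvap, Angpt2 and Flt1 and the lowest Stab2, Clec4g and Kdr of the 3 tumours. In Glul, the glutamine synthetase of pericentral hepatocytes, named after its values were seen, the tumours read 6.25, 0.41 and 1.80, against 5.77, 5.36 and 5.56 in arsenite-line non-tumour liver. With 1 tumour of that kind, no test can be made. Without tumour 1 the contrast differed from arsenite-line non-tumour liver by -1.32, and without tumour 3 by -1.92.

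Correlations between members often differed with and without the tumours. Stab2 and Cd34 correlated at -0.92 over 12 arrays and at 0.11 over the 9 arrays outside tumours. Angpt2 and Flt1 correlated at 0.91 and 0.55, and Stab2 and Clec4g at 0.83 and 0.33. These values describe arrays that share slides within groups, and they carry no p. Stab2 and Lyve1, at -0.81 and -0.63, kept their direction outside tumours, as did Vegfa and Clec4g, at -0.50 and -0.72, and Vegfa and Lyve1, at 0.49 and 0.63. Pecam1 and Stab2 correlated at -0.50 and 0.78, and Pecam1 and Lyve1 at 0.28 and -0.65. Genes with the pattern most like that of Stab2 over 12 arrays were Eif4a2 (r = 0.989), 1190005I06Rik (0.981) and Pus10 (0.974), and over the 9 arrays Taok3 (0.966), Hps6 (0.957) and Eif4a2 (0.938). For Plvap they were Procr (0.830), Clcn5 (0.822) and Thy1 (0.814), and over the 9 arrays Tent5a, Ermap and D230034L24Rik at 0.941 to 0.931. For Vegfa an unnamed chromosome 11 transcript (0.878), Pgp (0.874) and Fasn (0.871) came first, and over the 9 arrays Atrip, Mphosph6 and Rtkn at 0.940 to 0.929. These genes are the highest of all 18101 over few arrays, so high values come in part from the search. A link between them and the members was not tested.

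Other genes of the same vessel types, from fixed lists without the members, were counted in tumours against arsenite-line non-tumour liver. In that comparison 17.1% of all genes were higher and 30% lower. The members and lists were chosen by name, and no test was made on a list as a whole. Of 25 tested capillary and basement membrane genes 14 rose and 5 fell, with a median difference of 1.17, against -0.13 for all genes. The count of rises was 14 or 15 in all 8 alternatives run, which varied neither the filter nor the probe rule. Of the 25 genes, 19 were well above background on every array. A gene can pass the filter through the tumours alone, and it is then likely to count as a rise. The share of the rises that came from such genes was not tested. Which cells carried the basement membrane genes was not tested. Against normal liver 16 rose and 5 fell, and against the control line 15 rose and 5 fell. Nid1, a basement membrane linker protein, read 5.63, 5.96 and 5.80 in tumours, against 0.50, 0.73 and 0.62 in arsenite-line non-tumour liver, and rose by 5.18 ± 0.11 (adjusted p = 1.3e-09). Esm1, a proteoglycan of sprouting endothelial tip cells, read 4.63, 3.91 and 4.21 in tumours, against -1.75, 0.09 and -1.46, and rose by 5.29 ± 0.42 (adjusted p = 5.5e-06). Cav2, a caveolar protein, rose by 2.50 ± 0.19 and the tetraspanin Cd9 by 1.17 ± 0.12, neither of which is limited to endothelium. Apln, a peptide of sprouting endothelium, was well above background on all 3 tumours and on none of the 3 control arrays. It was at least 4.62-fold higher than in the control line. Apln passed the filter only through the tumours, where it is high, so no p is given. Ly6a and Vwf, named after their values were seen, were among the capillary genes that fell, by 3.83 and 0.98.

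Of 21 tested sinusoidal genes other than the members, 11 fell and 4 rose, with a median of -0.38. With the replicate block on the 6 arrays 9 fell and 2 rose, and with the other 3 scalings 7 to 9 fell. Rspo3, a Wnt enhancer of central vein endothelium, fell by 2.33 ± 0.28 (adjusted p = 7.1e-05). Bmp2, which drives hepcidin in hepatocytes, fell by 0.71 ± 0.13 (adjusted p = 0.001), and Clec1b, a lectin receptor, by 0.78 ± 0.12 (adjusted p = 0.00049). The secreted netrin Ntn4 rose by 2.30 ± 0.22, with low values outside tumours imprecise. It was well above background on 2 of 3 arsenite-line non-tumour arrays and on none of the 3 control arrays. Against the control line it was at least 5.34-fold higher. Ntn4 passed the filter only through the tumours, where it is high, so no p is given. Stab1, the relative of Stab2, rose by 0.72 ± 0.13 against normal liver (adjusted p = 0.0011). Against normal liver and against the control line 8 of the 21 fell and 4 rose in each, with medians of -0.22 and -0.31, where 31% and 32.3% of all genes were lower. Against normal liver these counts were not stable: 3 fell and 5 rose with the median of each array as the scale, with a median difference of 0.02, and 3 fell and 4 rose with the replicate block on the 6 arrays.

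Of 30 tested genes of all endothelium 12 rose and 4 fell, with a median of 0.23. The junction protein Cldn5 rose by 0.67 ± 0.10 (adjusted p = 0.0003) and the matrix protein Mmrn2 by 0.62 ± 0.11 (adjusted p = 0.0012). Myct1 fell by 1.26 ± 0.18 (adjusted p = 0.00024) and the sphingosine receptor S1pr1 by 0.87 ± 0.13 (adjusted p = 0.00034). Cdh5, the cadherin of endothelial junctions, named after its value was seen, gave 0.02 (adjusted p = 0.91). The count of rises depended on the scale: it was 6 with the median of each array and 15 with the 75th percentile of detected probes.

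Of 26 tested VEGF, angiopoietin and Notch genes 11 rose and 9 fell, with a median of 0.14, which was -0.00026 with normexp background correction and 0.30 with the 75th percentile of detected probes. Epas1, the oxygen-regulated factor HIF-2 alpha, rose by 1.22 ± 0.11 (adjusted p = 1.3e-05). Angptl6, a hepatocyte angiopoietin-like factor, fell by 1.89 ± 0.17 (adjusted p = 1.2e-05), the growth factor Fgf1 by 1.62 ± 0.17 and the VEGF co-receptor Nrp2 by 1.06 ± 0.11. Tek, the receptor of Angpt2, named after its value was seen, gave 0.07 (adjusted p = 0.78). Of 21 tested genes induced by low oxygen 2 rose and 7 fell, with a median of -0.18, beside 17.1% higher and 30% lower among all genes. With quantile normalization and with the 75th percentile of detected probes 4 rose and 5 fell. The kinase Pdk1 fell by 1.70 ± 0.19 and the prolyl hydroxylase subunit P4ha2 by 1.84 ± 0.21, whereas the glycolytic regulator Pfkfb4 rose by 1.501 ± 0.19.

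Markers of other liver cells were counted in the same comparison, where 30% of all genes were lower and 17.1% higher. Of 14 tested Kupffer cell and macrophage markers 12 fell and none rose, among them Clec4f (2.27 lower on the log2 scale), Vsig4 (1.68 lower), Itgam and Csf1r. Under the alternatives 8 to 13 fell and none rose. It was 8 with the 75th percentile of detected probes, 9 with quantile normalization and 9 without tumour 2. Against normal liver 8 fell and against the control line 7, and none rose, where 31% and 32.3% of all genes were lower. Without tumour 2, and with each of the 3 other scalings, 5 fell against normal liver. Their summed signal was 55.9 to 98.2 in tumours, in multiples of the 75th percentile of the array, against 154 to 211 in arsenite-line non-tumour liver, 131 to 174 in normal liver and 126 to 204 in the control line. Cd163 alone of the 15 did not pass the filter. Of 13 tested stellate, mural and fibroblast markers 7 fell, Dcn, Lum, Rgs5 and Ngfr among them. The 4 that rose were Reln, Col1a1, Col1a2 and Acta2, named after their values were seen, and the summed signal was 31.7 to 45.5 in tumours, against 83.4 to 91.3, 80.8 to 90.1 and 84.2 to 105. Des, Cspg4 and Myh11 did not pass the filter. Of the other lists 3 of 12 hepatocyte markers, 1 of 3 blood markers and 1 of 6 lymphocyte markers fell, 1 hepatocyte marker rose, and none of 5 bile duct markers passed. Counts of these other lists lay near or under the shares of all genes. Some of these cells also carry Stab1, Mrc1 or Lyve1, and their part in the member results was not tested.

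**Figure D5:**
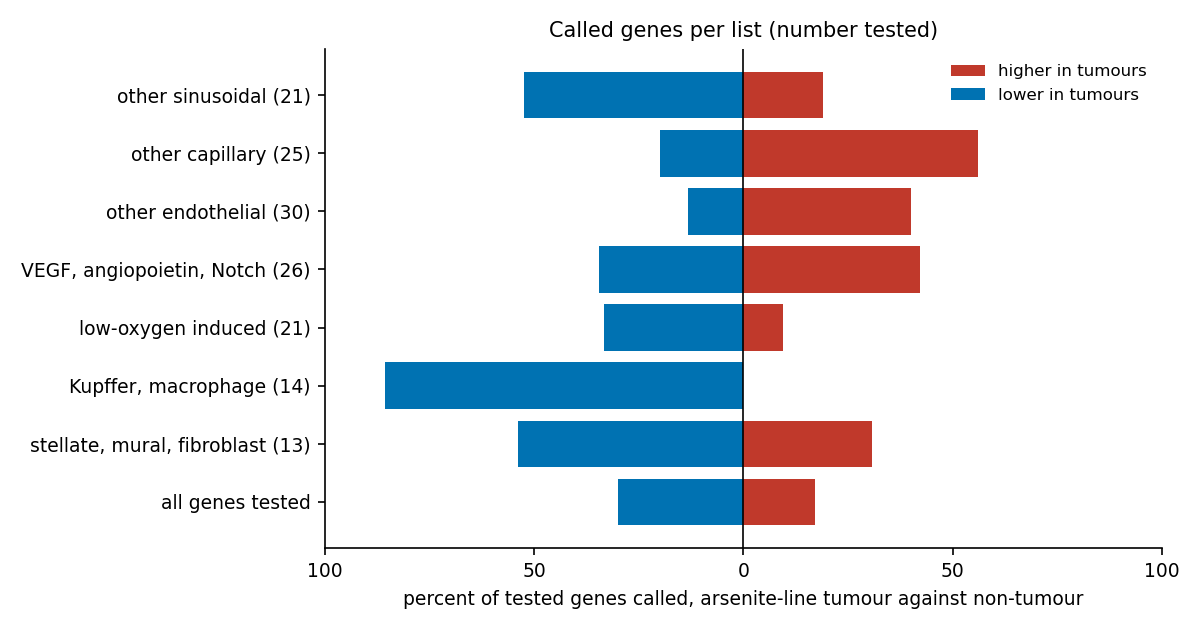
Share of tested genes called higher (right) or lower (left) in tumours against arsenite-line non-tumour liver, for 7 lists without the members and for all genes. Of the capillary list 14 of 25 rose, of the sinusoidal list 11 of 21 fell and of the Kupffer list 12 of 14 fell, beside 17.1% higher and 30% lower among all genes.

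Arsenite-line non-tumour liver was compared with normal liver of that line, and with control-line non-tumour liver for the effect of the line. The non-tumour groups of both lines shared a slide. No member passed either comparison by limma. Against normal liver no gene of 18101 passed (0%), and 3 members had an unadjusted p under 0.05, where 6.83% of all genes did. These were Clec4g at 0.46 (adjusted p = 0.63), Vegfa at -0.35 (adjusted p = 0.65) and Lyve1 at -0.81 (adjusted p = 0.73). Clec4g was the single member without overlap between these groups (15.2% of all genes). Against the control line 1 gene passed (0.00552%), Sh3bp4, and no member had an unadjusted p under 0.05, where 5.63% of all genes did. Kdr and Clec4g did not overlap there (10.5% of all genes), with differences of -0.20 (interval -0.44 to 0.04) and 0.28 (interval -0.04 to 0.60). The interval of Cd34 ran there from -0.74 to 0.62 and that of Angpt2 from -1.05 to 0.47. With 3 arrays per group, differences within these ranges thus remain possible. The contrast of sinusoidal and capillary members differed by -0.13 against normal liver and by 0.04 against the control line.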

How the data were processed

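Total RNA was column-purified with DNase digestion, and 100 ng was labelled with Cy3, per the labels' protocols. The deposited scanner files hold the intensity of each spot as a background-subtracted processed signal, from Agilent Feature Extraction 10.7.3.1 per the file headers and 12.0.3.1 per the submitters' processing notes. The deposited value table holds a ratio, namely processed signal relative to its 75th percentile on the array with control spots included, as checked against the scanner files. Probe positions are mm9, per the file headers, and the sequence of 1 probe is not reported here. Each array holds 59305 spots outside the controls.

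The deposited intensity was taken to log2 and set relative to the 75th percentile of the spots outside the controls on each array. Spots of a probe were averaged without outlier flags, and 24144 probes were kept, those that some group had well above background on each of its 3 arrays. Each of 18101 genes was read by its brightest probe. Groups were compared in 1 limma fit of all 12 arrays (limma 3.58.1, R 4.3.3) with Benjamini-Hochberg adjustment over all genes and a threshold of 0.05. An exact permutation test of 3 against 3 cannot go below p = 0.1. The number of arrays limits the precision. The fit was tested on simulated arrays with known changes and independent noise. They held no slide, pairing or scaling effect, so those effects were not covered. Python 3.11.15 made counts and figures.

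Symbols came from RefSeq for 27221 probes by accession, and 24300 probes kept the name in the file. The members and lists were chosen with earlier results of these data known. Named genes are the members, the 4 called genes of smallest p in each list, and the 3 best correlates of Stab2, Plvap and Vegfa. Genes outside that rule are marked as named after their values were seen.

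Residuals of tumour and non-tumour samples of the arsenite line with equal numbers correlated at 0.145, 0.14 and 0.23 over all genes. Those with unequal numbers correlated at -0.16 to -0.004. Pairing by number was therefore tried as an alternative, the replicate block, whereas the main fit holds no replicate term. The pairing comes from these correlations and not from the labels. Between non-tumour and normal liver of the arsenite line, equal numbers correlated at 0.071, 0.122 and 0.063 and unequal numbers at -0.086 to 0.01. Equal numbers thus lay above unequal ones there too, so the pattern is not particular to tumours. In the remaining comparisons no equal-numbered pair reached 0.1. Residuals within a group cancel out, so negative values of unequal numbers are partly forced. Scaling, background correction, the filter, the probe rule, the replicate block, array weights and left-out arrays were varied. For the counts of the lists, the filter and the probe rule were not varied.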

Additional observations from a re-analysis of the deposited data

How the results depend on the processing

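Of 19 called member differences between tumours and another group, 350 values were computed under alternatives: 346 kept their direction, 313 stayed called, 33 lost the call and 4 reversed. Leaving out 1 array at a time gave 6 called members against arsenite-line non-tumour liver, 5 to 7 against normal liver and 6 to 7 against the control line. Fixed and random slide blocks were not run, since slide coincides with group for tumours and normal liver. The cause of each change below was not tested. Low signal limits Angpt2 and the dim Cd34 probe.

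With the replicate block on the 6 arrays of a comparison, 5 members passed in tumours against arsenite-line non-tumour liver (Lyve1 at an adjusted p of 0.062). Against the control line 4 passed, although samples of different lines are not pairs. Equal numbers correlated there at 0.092, 0.053 and -0.001. With the replicate block no other call against arsenite-line non-tumour liver was lost, and no gene passed between the non-tumour groups (0 genes).

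In tumours against arsenite-line non-tumour liver, Kdr reversed to 0.018 with the 75th percentile of detected probes and 0.051 with quantile normalization, and Stab2 to 0.19 with the probe at 86455257. Against normal liver, 14219 genes passed with no filter on dim probes. Vegfa reversed there to 0.12 (median of each array), 0.025 (detected probes) and 0.019 (quantile), Kdr to 0.049 with its second probe, and Stab2 to 0.10 and 0.17 with its other probes. Against the control line, Vegfa reversed to -0.10 with its second probe.

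Between non-tumour and normal liver of the arsenite line, 1 gene passed with the median of each array, 1 with probes above background on all 12 arrays, and 5 with array weights, and leaving out 1 array gave 0 to 1. With the median of each array Kdr was 0.10, Flt1 0.28 and Plvap 0.29. With normexp Plvap was 0.013. With the mean of probes Flt1 was 0.10 and Plvap 0.032. Single other probes gave Kdr 0.094, Flt1 0.24, Plvap 0.087 and Stab2 -0.019. Leaving out 1 array gave -0.0073 to 0.62 for Angpt2, -0.090 to 0.0082 for Flt1, -0.062 to 0.42 for Cd34 and -0.15 to 0.048 for Plvap.

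Between the non-tumour groups of both lines, 3 genes passed with the median of each array, 0 with normexp, 6 with no filter, 0 with probes above background on all 12 arrays, 4 with array weights and 4 with the 6 arrays alone, and leaving out 1 array gave 0 to 3. With the median of each array Vegfa was 0.23, Kdr 0.080, Flt1 0.14, Pecam1 0.26, Stab2 0.21, Lyve1 0.030, Cd34 0.22 and Plvap 0.24. With normexp Vegfa was 0.066 and Plvap 0.0044. Leaving out 1 array gave -0.14 to 0.039 for Vegfa, -0.16 to 0.11 for Pecam1, -0.18 to 0.070 for Stab2, -0.62 to 0.094 for Lyve1, -0.20 to 0.053 for Cd34 and -0.17 to 0.035 for Plvap.

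The contrast of sinusoidal and capillary members, tumour minus arsenite-line non-tumour liver, normal liver and the control line in turn, was -2.51, -2.27 and -2.35 without Lyve1, -0.22, -0.28 and -0.19 without Cd34, and -3.05, -3.26 and -3.01 without Plvap. Without Stab2 it was -1.15 against arsenite-line non-tumour liver and -1.09 against the control line. Without Lyve1 it was 0.23 between non-tumour and normal liver. Leaving out 1 array gave -1.92 to -1.32, -2.05 to -1.45 and -1.89 to -1.29 in the tumour comparisons, -0.29 to 0.037 between non-tumour and normal liver, and -0.046 to 0.16 between the non-tumour groups.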
